A study of Mus musculus with 12 samples.

Results

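The interleukin-1 receptor family was followed here through 8 of the 52636 genes counted in the dentate gyrus of the mouse. They were Il1r1, the receptor that binds interleukin-1, its co-receptor Il1rap, the related receptors Il1rapl1, Il1rapl2 and Sigirr, the adaptor Myd88 and the kinases Irak1 and Irak2. Il1r1 was selected on its counts in this series, which were lower with a follistatin vector than with a control vector. Its values in that contrast are therefore a description and were given no test. The other 7 genes were chosen as its relatives and downstream partners, and all 8 gene symbols were found in the count tables.

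The study sequenced 12 libraries of total RNA from C57BL/6 mice and has 4 groups with 3 libraries per group. The dentate gyrus is the granule cell field of the hippocampus, and follistatin (Fst), a secreted protein, binds and neutralises activins. The groups were wild type (WT), Fst knockout (KO), knockout given AAV9-CB::GFP (GFP vector), and mice given AAV9-CB::Fst (Fst vector). AAV9 is an adeno-associated virus used to carry a gene into brain cells, and CB is written in the labels without further definition. The labels call the last group OE and state no genotype for it, so whether the Fst vector group also lacks the Fst gene is not known here. No age, vector dose, injection site or interval after injection is given in the sources used here, nor the cells in which the knockout acts. The design text leaves unclear whether each library holds RNA of several mice, and p-values measure only the spread between these libraries. Libraries are named by title (M1, M2, F1 or F), and for WT F1, WT M2, KO F1 and KO M2 the title and the description name different sexes.

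Total counts ran from 8081824 to 11331337 per library. Values below are CPM, counts scaled to the library total, and 3 counts equal 0.265 to 0.371 CPM. Fst itself was at 3.54 to 4.50 CPM in WT, 0.203 to 0.428 in KO, 0 to 0.0974 in the GFP vector group and 166 to 204 in the Fst vector group. Xist, which coats the inactive X chromosome of female cells, was at 1214 to 1785 CPM in the 4 libraries titled as female and at 0.525 or less in the other 8, so the titles and not the descriptions match it. The GFP vector libraries differed among themselves: M1 was close to the untreated knockout for several genes described below, while M2 and F were not. Values are therefore given for each library.

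Interleukin-1 alpha and beta act through a receptor pair. IL1R1 binds the ligand, IL1RAP joins it, and their intracellular TIR domains recruit MYD88 and the IRAK kinases, which lead through TRAF6 and TAK1 to NF-kappaB and MAP kinases. In the mouse brain, IL1R1 is known from dentate granule neurons and from the endothelium of blood vessels. IL1RAP also has a neuronal splice form, and IL1RAP and IL1RAPL1 take part in synapse formation by binding presynaptic receptor phosphatases.

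Il1r1 (ENSMUSG00000026072) lies on the plus strand of chromosome 1 at 40225080 to 40317257 in GRCm38. RefSeq lists promoters at a pair of starts. The 250 bases before each are shown because this gene had the largest log2 change of the 8 between the vector groups. Capitals mark the matches found, on either strand, among 3 motifs that were searched: CAGAC, a core bound by SMAD proteins, which activin signalling uses; TGACG, the core of the cyclic AMP response element; and GGG spaced from CC by any 5 bases, a loose form of the NF-kappaB site. These windows overlap no annotated exon.

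Il1r1 start 1: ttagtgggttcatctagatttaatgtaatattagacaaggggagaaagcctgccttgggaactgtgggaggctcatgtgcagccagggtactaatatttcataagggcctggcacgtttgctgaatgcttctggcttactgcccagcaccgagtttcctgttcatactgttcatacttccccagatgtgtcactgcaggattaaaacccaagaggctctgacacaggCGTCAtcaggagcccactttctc

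Il1r1 start 2: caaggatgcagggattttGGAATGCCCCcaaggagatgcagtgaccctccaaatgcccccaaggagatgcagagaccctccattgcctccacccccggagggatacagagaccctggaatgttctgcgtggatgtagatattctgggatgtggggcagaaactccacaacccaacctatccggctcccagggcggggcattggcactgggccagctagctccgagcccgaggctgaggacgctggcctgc

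The upstream window, start 1, lies at chr1:40224830-40225079 and the downstream window, start 2, at chr1:40266336-40266585, both on the plus strand of GRCm38.p6. Start 1 held 1 match to TGACG, read on the minus strand, and neither of the other motifs. Start 2 held 1 match to the loose NF-kappaB site, also on the minus strand, and none to CAGAC or TGACG. Among all 32851 RefSeq promoter windows searched over the same length, 17.8% held TGACG, 45.8% held the loose NF-kappaB site and 42.2% held CAGAC. A match describes letters only, and counts per gene do not tell which start was used. A promoter was listed for 7 of the 8 genes.

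Il1r1 was at 57.3 CPM in WT M1, 55.7 in WT F1 and 60.4 in WT M2. In KO it was at 59.5 in M1, 56.6 in F1 and 55.3 in M2. In the GFP vector group it was at 57.4 in M1, 27.8 in M2 and 28.8 in F, and in the Fst vector group at 11.9 in M1, 7.39 in M2 and 5.65 in F. All 6 untreated libraries and GFP vector M1 thus lay between 55.3 and 60.4 CPM, GFP vector M2 and F lay near 28, and the 3 Fst vector libraries lay below every other library. Behind the lowest values stand 121, 73 and 51 reads in Fst vector M1, M2 and F. The level with the Fst vector was 4.66 times lower than with the GFP vector (log2 change -2.22 ± 0.39 SE, n = 3 per group). Leaving out each library in turn moved this value between -2.58 and -1.79, the smallest change being that without GFP vector M1. In tissue RNA, fewer cells of a type and less RNA per cell cannot be told apart.

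Il1r1 did not differ detectably between KO and WT. There the log2 change was 0.00 ± 0.08 SE, with a 95% interval from -0.15 to 0.15 (edgeR's quasi-likelihood test, Benjamini-Hochberg adjusted p = 0.9999). This contrast played no part in choosing the gene. Loss of Fst and supply of Fst by the vector therefore stand side by side as a log2 change of 0.00 and one of -2.22. The difference between having and lacking Fst in the vector groups, less that in the untreated groups, was -2.22 ± 0.41 SE on the log2 scale, a description since it holds the contrast that chose the gene. In KO the change from GFP vector against no vector was -0.61 ± 0.28 SE. It was -1.04 without GFP vector M1, -0.42 without GFP vector M2 and -0.45 without GFP vector F. The vector and the count table cannot be told apart in that comparison.

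**Figure D1:**
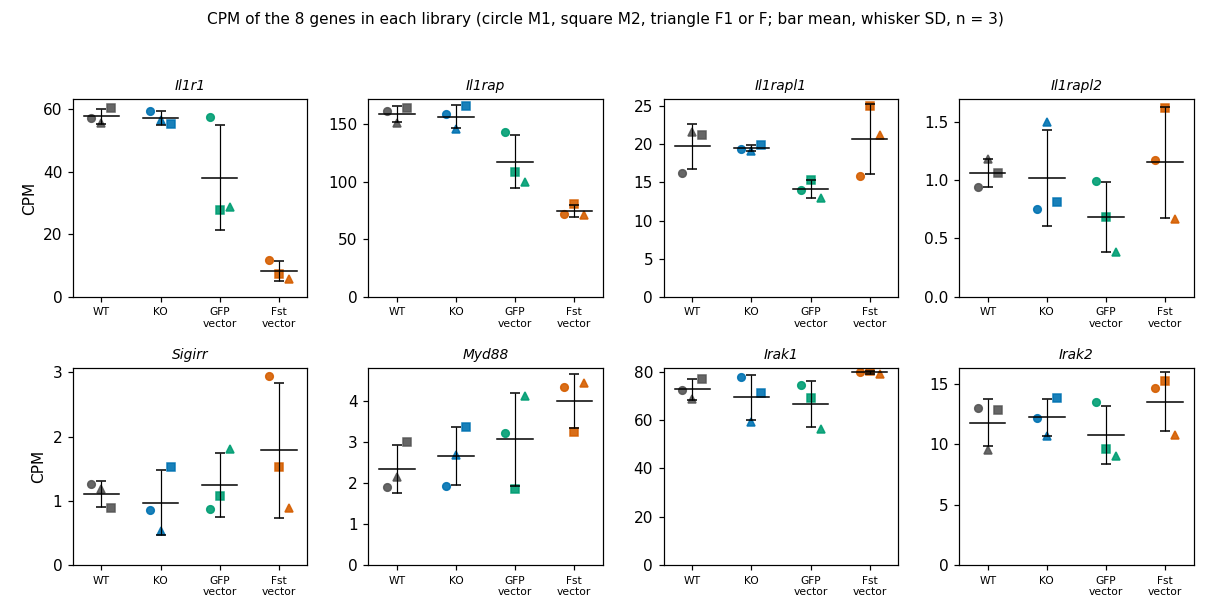
CPM of the 8 genes in each library by group, with circles for M1, squares for M2 and triangles for F1 or F, bars at the mean and whiskers of 1 SD (n = 3). Il1r1 and Il1rap step down from the untreated groups through the GFP vector group to the Fst vector group, where Il1r1 is between 5.65 and 11.9 CPM, while the other 6 genes show no such steps.

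Il1rap (ENSMUSG00000022514, chromosome 16, 26581704 to 26730117, plus strand) encodes the co-receptor. It was at 161.5 CPM in WT M1, 151.2 in WT F1 and 164.4 in WT M2, and in KO at 158.6 in M1, 145.4 in F1 and 165.4 in M2. The GFP vector libraries held 143.3 in M1, 108.6 in M2 and 99.7 in F. The Fst vector libraries held 71.6 in M1, 80.7 in M2 and 71.1 in F. As for Il1r1, the Fst vector libraries were the lowest 3 of 12, and GFP vector M1 was the highest of its group, here just under the untreated range. Between the vector groups the log2 change was -0.69 ± 0.15 SE, or 1.61 times lower, and it did not pass the test over all genes (edgeR, adjusted p = 0.194). With the replicate name as a block the adjusted p was 0.0720, and DESeq2 gave 0.0160. The alternatives tried ranged from 0.0043 to 0.590.

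Il1rap did not differ detectably between KO and WT, with a log2 change of -0.01 ± 0.06 SE and a 95% interval from -0.13 to 0.11 (edgeR, adjusted p = 0.997). GFP vector against KO gave -0.44 ± 0.12 SE, with all 3 GFP vector libraries below all 3 KO libraries (edgeR, adjusted p = 0.0552). Whether it was called varied with the libraries and the settings. By edgeR the change was -0.61 without GFP vector M1 (adjusted p = 0.0016), -0.38 without GFP vector M2 (0.142) and -0.33 without GFP vector F (0.150). Without Fst vector M1, which shares the estimate of spread, it was -0.44 (adjusted p = 0.0356). With all libraries, edgeR called it without the filter (adjusted p = 0.0046) and with sex by title as a term (0.0356). DESeq2 also called it (adjusted p = 0.0201). The effect of having Fst in the vector groups, less that in the untreated groups, was -0.70 ± 0.17 SE on the log2 scale and did not pass (edgeR, adjusted p = 0.165). With the replicate block it was -0.69 ± 0.15 SE and passed (edgeR, adjusted p = 0.0455). Having Fst is not the same dose in both, since Fst was at 166 to 204 CPM in the Fst vector group and 3.54 to 4.50 in WT. Reads of Il1rap cannot be told from those of Gm20319 on the opposite strand over 552 bases of shared exon, since no source used here gives the handling of strand.

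The receptor stood lower against its partner in the Fst vector libraries than in any other library. Per kilobase of exon, the scale on which levels of different genes can be compared, Il1r1 stood to Il1rap at 0.633, 0.657 and 0.655 in WT M1, F1 and M2. The ratio was 0.670, 0.695 and 0.597 in KO M1, F1 and M2, then 0.715, 0.456 and 0.516 in GFP vector M1, M2 and F. In the Fst vector libraries it was 0.296 in M1, 0.164 in M2 and 0.142 in F. The mean ratio was 0.649 ± 0.013 (SD, n = 3) in WT, 0.654 ± 0.051 in KO, 0.563 ± 0.136 in the GFP vector group and 0.201 ± 0.084 in the Fst vector group. Because it contains Il1r1, this ratio too is a description. These counts do not separate the splice forms of Il1rap.

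Il1rapl1 (ENSMUSG00000052372, chromosome X, 86740870 to 88115645, minus strand) encodes a synaptic receptor without a known role as an interleukin-1 receptor, and its human counterpart is linked to X-linked intellectual disability. It was at 16.3 CPM in WT M1, 21.7 in F1 and 21.3 in M2, and at 19.4, 19.2 and 19.9 in KO M1, F1 and M2. The GFP vector libraries held 14.0 in M1, 15.4 in M2 and 13.0 in F, and the Fst vector libraries 15.9 in M1, 25.01 in M2 and 21.3 in F. The GFP vector libraries were the lowest 3 of 12, and the Fst vector libraries spanned the untreated range, opposite in direction to Il1r1 and Il1rap. The log2 change between the vector groups was 0.52 ± 0.19 SE (edgeR, adjusted p = 0.435), and that of GFP vector against KO was -0.49 ± 0.16 SE (adjusted p = 0.101, and 0.0388 without Fst vector M1). Neither passed over all libraries. KO against WT gave 0.00 ± 0.12 SE, with a 95% interval from -0.24 to 0.24.

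Il1rapl2 (ENSMUSG00000059203, chromosome X, 137570608 to 138846946, plus strand), the close paralog of Il1rapl1, was barely counted. It had 9, 11 and 12 reads in WT M1, F1 and M2, 7, 14 and 8 in KO M1, F1 and M2, 8, 7 and 4 in GFP vector M1, M2 and F, and 12, 16 and 6 in Fst vector M1, M2 and F. The groups overlapped, and the gene did not pass the filter on low counts in either comparison within a table. GFP vector against KO gave -0.62 ± 0.49 SE (edgeR, adjusted p = 0.463).

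Sigirr (ENSMUSG00000025494, chromosome 7, 141091175 to 141100572, minus strand) encodes a single-immunoglobulin receptor that damps interleukin-1 and Toll-like receptor signalling. It had 12, 11 and 10 reads in WT M1, F1 and M2 and 8, 5 and 15 in KO M1, F1 and M2. GFP vector M1, M2 and F had 7, 11 and 19, and Fst vector M1, M2 and F had 30, 15 and 8. Its range in every group overlapped that of the others, and Fst vector M1 was the highest of the 12 libraries. Between the vector groups the log2 change was 0.47 ± 0.51 SE (edgeR, adjusted p = 0.817), and without Fst vector M1 it was -0.11. Between KO and WT it was -0.14 ± 0.45 SE, with a 95% interval from -1.06 to 0.77, so a change of up to that size was not detectable at this depth.

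Myd88 (ENSMUSG00000032508, chromosome 9, 119335934 to 119341411, minus strand) encodes the adaptor shared by interleukin-1 and most Toll-like receptors. It had 18, 20 and 34 reads in WT M1, F1 and M2 and 18, 25 and 33 in KO M1, F1 and M2. GFP vector M1, M2 and F had 26, 19 and 43, and Fst vector M1, M2 and F had 44, 32 and 40. Scaled to library totals, Fst vector M1 and F, at 4.32 and 4.43 CPM, were above the other 10 libraries, whose highest was GFP vector F at 4.10, and the groups overlapped. The log2 change was 0.35 ± 0.34 SE between the vector groups (edgeR, adjusted p = 0.800) and 0.18 ± 0.30 SE between KO and WT (adjusted p = 0.974). Its exons share 290 bases with Acaa1a on the opposite strand, whose reads cannot be told apart from its own.

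Irak1 (ENSMUSG00000031392, chromosome X, 74013914 to 74023918, minus strand) encodes a kinase recruited to the receptor complex through MYD88. It was at 72.5, 68.5 and 77.0 CPM in WT M1, F1 and M2 and at 77.8, 59.1 and 71.1 in KO M1, F1 and M2. It was at 74.5 in GFP vector M1, 69.2 in M2 and 56.2 in F, and at 80.0, 80.2 and 79.0 in Fst vector M1, M2 and F. The Fst vector libraries were the highest 3 of 12 and lay close together, though the step from GFP vector M1 was small. The log2 change was 0.22 ± 0.13 SE between the vector groups (edgeR, adjusted p = 0.662), -0.08 ± 0.12 SE for GFP vector against KO (adjusted p = 0.727) and -0.05 ± 0.08 SE between KO and WT (adjusted p = 0.973).

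Irak2 (ENSMUSG00000060477, chromosome 6, 113638467 to 113695026, plus strand) encodes a kinase that sustains the signal after IRAK1. It was at 13.0, 9.55 and 12.8 CPM in WT M1, F1 and M2 and at 12.1, 10.7 and 13.8 in KO M1, F1 and M2. It was at 13.5 in GFP vector M1, 9.64 in M2 and 9.06 in F, and at 14.6 in Fst vector M1, 15.2 in M2 and 10.7 in F. All 4 groups overlapped. The log2 change was 0.30 ± 0.23 SE between the vector groups (edgeR, adjusted p = 0.736) and 0.07 ± 0.15 SE between KO and WT (adjusted p = 0.981).

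Counted together, 7 of the 8 genes were tested between KO and WT, and none was called by edgeR, where 0.0268% of all genes tested were called. At an unadjusted p under 0.05 the count was 0 of 7, against 5.96% of all genes, and DESeq2 also called none of them, against 0.0402%. None of the 7 had KO and WT libraries that did not overlap, against 11% of all genes. In the comparisons that hold vector libraries only the 7 genes other than Il1r1 were counted. Between the vector groups 6 of these 7 were tested and edgeR called none, where 0.0798% of all genes were called. There 2 had an unadjusted p under 0.05 (9.51% of all genes), Il1rap and Il1rapl1. The vector groups did not overlap for 1 that was lower (Il1rap, against 6.01% of all genes) and 2 that were higher (Il1rapl1 and Irak1, against 10.5%). DESeq2 called Il1rap there, with 1.6% of all genes called. For GFP vector against KO all 7 were tested and edgeR called none, where 3.58% of all genes were called, and 2 had an unadjusted p under 0.05 (22.8% of all genes). DESeq2 called Il1rap, with 7.91% of all genes called. Il1rap and Il1rapl1 were lower there without overlap, against 13% of all genes, and none was higher, against 16.1%. In the difference of effects none of the 7 was called by edgeR, where 0.109% of all genes were called, and 2 had an unadjusted p under 0.05 (8.62% of all genes). Il1rap passed with the replicate block, where 1.04% of all genes did, and with DESeq2, where 0.889% did.

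**Figure D2:**
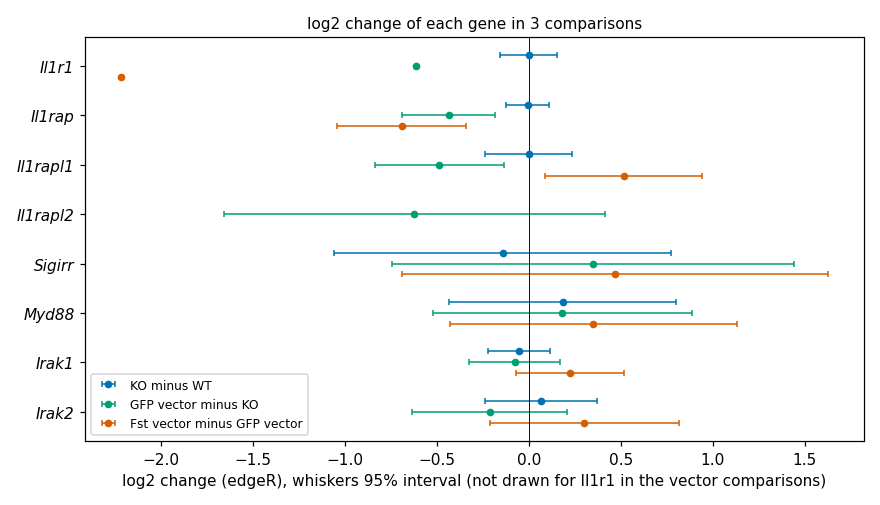
Log2 change of each gene in KO against WT, GFP vector against KO and Fst vector against GFP vector, with 95% intervals from edgeR, which are not drawn for Il1r1 in the vector comparisons because its fall there chose it. The KO against WT points of Il1r1, Il1rap and Il1rapl1 lie at 0.00, -0.01 and 0.00, and for Fst vector against GFP vector Il1r1 lies at -2.22.

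On the length-scaled level, Irak1 was the most abundant of the 8 in every group, at 15.4 CPM per kilobase in WT and 16.9 in the Fst vector group. Il1rap followed at 14.0 in WT, 13.8 in KO, 10.3 in the GFP vector group and 6.55 in the Fst vector group. Irak1 and Il1rap overlapped in KO and in the GFP vector group, and lay apart in WT, by little, and in the Fst vector group. Il1r1 was the next in WT at 9.08, in KO at 8.98 and in the GFP vector group at 5.97, each time above Irak2 in all 3 libraries. In the Fst vector group it averaged 1.31, behind Irak2 at 3.06, Il1rapl1 at 2.22 and Myd88 at 1.55, and its range of 0.887 to 1.87 overlapped those of Il1rapl1, Myd88 and Sigirr. Sigirr and Il1rapl2 were the lowest in every group. They averaged 0.364 and 0.226 in WT. The receptor that binds the ligand thus went from the 3rd place to the 6th, while the order of the other 7 genes was the same in all 4 groups.

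**Figure D3:**
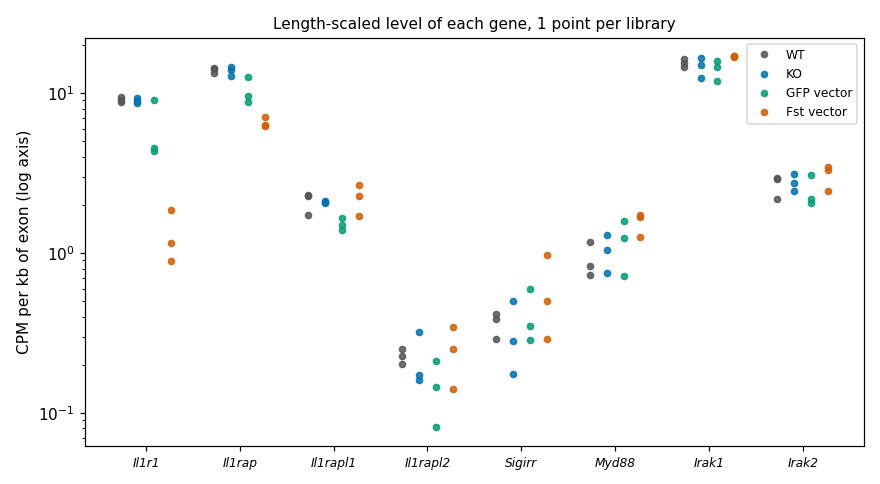
Level of each gene in CPM per kilobase of exon on a log axis, 1 point per library, coloured by group. Il1r1 lies between 8.68 and 9.49 in the 6 untreated libraries and between 0.887 and 1.87 in the 3 Fst vector libraries, and Sigirr and Il1rapl2 lie below 1 throughout.

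Ligands for these receptors were scarce in the tissue. Il1a had 11 reads over the 3 WT libraries, 7 over KO, 10 over the GFP vector group and 15 over the Fst vector group, and Il1b had 2, 1, 1 and 1. Il1rn, the receptor antagonist, had 0, 2, 3 and 0, and 4 of the 11 listed ligands and antagonists had no read in any library. Only Il18, its binding protein Il18bp and the alarmin Il33 passed the filter, and none was called in either comparison. Il33, which signals through Il1rap with its own receptor Il1rl1, was at 19.6 to 23.1 CPM in WT, 16.7 to 22.04 in KO, 11.6 to 22.5 in the GFP vector group and 12.8 to 18.5 in the Fst vector group. Il18 had the smallest p of the list between KO and WT: 15.5, 13.2 and 12.4 CPM in WT M1, F1 and M2 against 15.6, 16.2 and 17.7 in KO M1, F1 and M2, a log2 change of 0.28 ± 0.13 SE (edgeR, adjusted p = 0.813). Il18bp had the smallest between the vector groups, at 0.17 ± 0.18 SE (edgeR, adjusted p = 0.813).

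Other receptors of the family were near the floor. The decoy receptor Il1r2 had 20 reads over WT, 14 over KO, 14 over the GFP vector group and 11 over the Fst vector group. Il1rl1 had 6, 3, 4 and 4, and Il1rl2 had 15, 12, 11 and 15. Il18r1 and Il18rap, the receptor chains for IL-18, had at most 2 reads in any group. Of the 10 receptors listed, 4 could be tested in each comparison, and these were all among the 8 genes above.

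Downstream, the 9 pathway lists together held 71 genes that could be tested between KO and WT and, leaving out Il1r1, 73 between the vector groups, and edgeR called none of them in either. At an unadjusted p under 0.05 there were 4 between KO and WT (5.96% of all genes) and 11 between the vector groups (9.51%). DESeq2 called none between KO and WT (0.0402% of all genes) and 2 between the vector groups (1.6%), Il1rap and Mcf2l. Their median log2 change was -0.01 between KO and WT and -0.05 between the vector groups, against -0.00 and 0.01 over all genes tested. With the replicate block in the vector comparison none of the 73 was called, with 0.938% of all genes called. Groups did not overlap for 2 higher and 6 lower genes between KO and WT (3.98% and 7.04% of all genes), and for 2 higher and 10 lower between the vector groups (10.5% and 6.01%).

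Among the proximal adaptors and kinases 13 of 15 genes were tested in each comparison. In the vector comparison 7 were positive and 6 negative, with a median log2 change of 0.06. Tollip, which binds the receptor complex and restrains IRAK1, had the smallest p. It was at 167.9 CPM in GFP vector M1, 164.2 in M2 and 210.6 in F, and at 126.5, 144.5 and 136.3 in Fst vector M1, M2 and F. The groups did not overlap, GFP vector F being the highest of the 6, and the log2 change was -0.45 ± 0.14 SE (edgeR, adjusted p = 0.345). The TAK1, IKK and MAP kinase relay had 17 of 18 genes tested, 3 positive and 14 negative, with a median of -0.11. Ikbkg, the regulatory subunit of the IKK complex, led it with -0.38 ± 0.16 SE (edgeR, adjusted p = 0.504).

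Of the NF-kappaB subunits and inhibitors 9 of 10 were tested. Between KO and WT 7 of these were negative, with a median of -0.23, and 4 were lower without overlap, against 7.04% of all genes. Nfkb1, the p105 and p50 subunit, was at 30.8, 29.5 and 30.5 CPM in WT M1, F1 and M2 and at 22.7, 26.2 and 25.2 in KO M1, F1 and M2. The groups did not overlap, and the log2 change of -0.28 ± 0.10 SE did not pass over all genes (edgeR, adjusted p = 0.678). The other three, Relb, Nfkbie and Nfkbiz, are named because their values were seen. Nfkbie was at 1.57 to 1.93 CPM in WT and 0.750 to 0.914 in KO. In the vector comparison the list had 3 positive and 6 negative members, with a median of -0.11, and none was apart.

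Genes that interleukin-1 and NF-kappaB induce gave 12 tested of 24 in the vector comparison, 4 positive and 8 negative, with a median of -0.18. Ptgs2, the inducible cyclooxygenase, which neuronal activity also induces, had the smallest p. It was at 14.8 CPM in GFP vector M1, 43.9 in M2 and 61.0 in F, and at 9.13, 6.08 and 18.3 in Fst vector M1, M2 and F. GFP vector M1 was below Fst vector F, so the groups overlapped, and the log2 change was -1.88 ± 0.62 SE (edgeR, adjusted p = 0.435). The untreated libraries held 14.7 to 19.8 CPM, near GFP vector M1 and Fst vector F. Bdnf, the activity-induced neurotrophin, was likewise at 73.4 in GFP vector M1 against 125 in M2 and 208 in F, and at 75.6, 76.1 and 192 in Fst vector M1, M2 and F. Il1r1 was at 57.4, 27.8 and 28.8 CPM in GFP vector M1, M2 and F and at 11.9, 7.39 and 5.65 in Fst vector M1, M2 and F, and its relation to these genes was not tested.

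Synaptic partners of IL1RAPL1 and IL1RAP gave 8 tested of 9, with 3 positive and 5 negative between the vector groups and a median of -0.06. Mcf2l, a RhoA exchange factor that binds IL1RAPL1, was at 313.0, 295.7 and 321.2 CPM in GFP vector M1, M2 and F and at 220.5, 219.0 and 189.1 in Fst vector M1, M2 and F. The Fst vector libraries were all below every other library, the untreated ones holding 327.8 to 379.3. The log2 change was -0.60 ± 0.12 SE (edgeR, adjusted p = 0.167, and 0.0581 with the replicate block). Between KO and WT it was 0.07 ± 0.06 SE (edgeR, adjusted p = 0.940). Toll-like receptors, which share MYD88 and the IRAK kinases, gave 5 tested of 12, with 1 positive and 4 negative and a median of -0.67. Tlr9 led them with -1.16 ± 0.42 SE, at 0.687 to 0.996 CPM in the Fst vector group and 1.36 to 2.58 in the GFP vector group (edgeR, adjusted p = 0.430). Its values rest on few reads, 12, 14 and 27 in GFP vector M1, M2 and F and 7, 8 and 9 in Fst vector M1, M2 and F. Inflammasome genes, which process interleukin-1 beta, gave 5 tested of 9 with a median of 0.05, and Pycard led them at -0.30 ± 0.39 SE (edgeR, adjusted p = 0.852).

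Markers of cell types were counted beside these values. Of 10 granule cell markers, all tested, edgeR called none between the vector groups, where 0.0798% of all genes were called. There were 4 positive and 6 negative, with a median log2 change of -0.20, and the summed level was 1591 to 2227 CPM with the GFP vector and 1662 to 1916 with the Fst vector, against 1908 to 2102 in the untreated libraries. The marker Dsp, a desmosomal protein of granule cells, passed with the replicate block (-1.48 ± 0.20 SE, edgeR, adjusted p = 0.0286), where 0.938% of all genes were called. Of 10 endothelial markers 9 were positive and none was called, and their summed level was 135 to 243 with the GFP vector and 205 to 229 with the Fst vector. All 9 oligodendrocyte markers were positive, with a median of 0.33, 5 of them without overlap (10.5% of all genes) and none called, and their sum was 1240 to 1401 with the GFP vector and 1633 to 1931 with the Fst vector. All 11 microglial and macrophage markers tested were negative, with a median of -0.33 and none called. The sum of all 12 listed was 380 to 528 CPM with the GFP vector and 333 to 419 with the Fst vector. Of 8 markers of CA1, CA2 and CA3 pyramidal cells 2 were positive and 6 negative, with a median of -0.12 and none called, at 223 to 261 CPM with the GFP vector and 195 to 241 with the Fst vector. Fibcd1, 1 of these markers, was at 32.8, 11.5 and 16.6 CPM in GFP vector M1, M2 and F and at 7.36, 2.94 and 2.77 in Fst vector M1, M2 and F. These groups did not overlap, as for 6.01% of all genes in this direction, and the log2 change was -2.24 ± 0.53 SE (edgeR, adjusted p = 0.252). With the replicate block, where 0.938% of all genes were called, it was -2.26 ± 0.20 SE (edgeR, adjusted p = 0.0066). The 3 tested of 8 markers of choroid plexus and ependyma were all negative, with a median of -0.98 and none called. The sum of all 8 was 18.1 to 33.9 CPM with the GFP vector and 12.3 to 18.5 with the Fst vector. Astrocyte markers, 3 positive and 5 negative, interneuron markers, 5 positive and 3 negative, and mossy cell markers, 5 positive and 1 negative, also had none called. Nor had mural cell markers, 5 positive and 2 negative, blood markers, 4 positive and 1 negative, or meningeal fibroblast markers, 4 positive and 4 negative. Mural sums were 91.4 to 124.8 CPM with the GFP vector and 120.1 to 127.8 with the Fst vector, and blood sums 42.9 to 60.2 and 56.2 to 91.6. No marker of the 13 lists was at 0 in all 12 libraries. The 6 T cell markers together reached at most 0.441 CPM in WT, 0.644 in KO, 1.05 in the GFP vector group and 1.01 in the Fst vector group. Cd3e, Cd3g and Cd3d, which define these cells, had no read in WT or KO, but each had reads in vector libraries. The reads of this list in WT and KO came from its other markers. The part of cell makeup in the change of Il1r1 was not tested.

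The genes whose pattern was most like that of Il1r1 were found by Pearson's r of log2(CPM + 1) over the 12 libraries, among 11635 genes with a mean of at least 5 CPM. These r values are descriptions: the points share libraries, depth and groups. The fall that chose Il1r1 also shapes them. The genes named were picked for this likeness, so patterns they share with Il1r1 follow from the choice. The highest were Dagla (0.993), which makes the endocannabinoid 2-arachidonoylglycerol, Wipf3 (0.986), an actin regulator, Galnt17 (0.980), a glycosyltransferase, Ahcyl2 (0.979), related to adenosylhomocysteinase, and Dsp (0.975). Il1rap was the 17th of all genes, with r = 0.958. The other members had r from -0.04 for Il1rapl2 to -0.59 for Myd88. Of these, Il1rapl2, Sigirr and Myd88 averaged below 5 CPM. They were therefore not among the 11635 genes, and their r rests on few reads.

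Dagla was at 345 to 356 CPM in WT and 341 to 382 in KO. It was at 355.9, 291.6 and 296.5 in GFP vector M1, M2 and F and at 227.1, 199.2 and 184.3 in Fst vector M1, M2 and F, with the same high GFP vector M1 and the same order among Fst vector libraries as Il1r1. Dsp was at 288.3, 101.7 and 98.3 in GFP vector M1, M2 and F and at 75.0, 56.2 and 34.2 in Fst vector M1, M2 and F, against 220 to 266 in the untreated libraries. Among the most opposed were Acan (-0.966), the aggrecan core of perineuronal nets, Necab2 (-0.959), a neuronal calcium-binding protein, Slc9a3r2 (-0.956), a scaffold protein, and Bmp1 (-0.952), a procollagen protease. Acan was at 5.44, 11.4 and 8.68 in GFP vector M1, M2 and F and at 14.9, 20.4 and 19.6 in Fst vector M1, M2 and F. GFP vector M1 lay within the untreated range of 3.96 to 6.09, and the Fst vector libraries lay above all others.

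**Figure D4:**
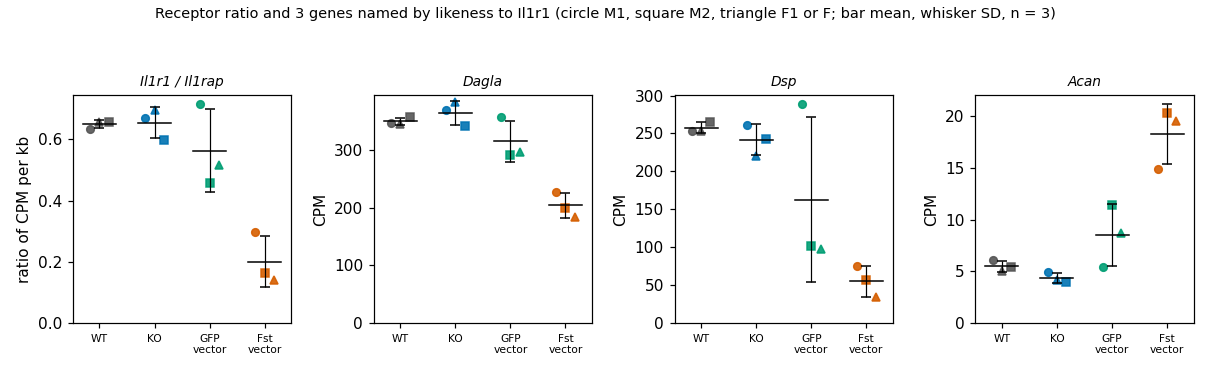
Ratio of Il1r1 to Il1rap per kilobase of exon, and CPM of Dagla, Dsp and Acan, in each library by group (circles M1, squares M2, triangles F1 or F, bars at the mean, whiskers 1 SD, n = 3). In all 4 panels GFP vector M1 lies at or near the untreated libraries and the Fst vector libraries lie apart, below them except for Acan. Dagla, Dsp and Acan were picked for their correlation with Il1r1 over these libraries, and the ratio holds Il1r1, so this likeness follows from the choice.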

How the data were processed

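The authors deposited raw counts of reads per Ensembl gene, with WT and KO in 1 table and the vector libraries in another, as the file headers show. Per the submitters' processing notes, GRCm38 was used. No source used here names the aligner, counting program, gene annotation or strand setting. The tables also held 6 and 12 lines naming no gene, which carried no counts and were left out. CPM used library totals, and levels per kilobase used the merged exon length of the GENCODE annotation of GRCm38. Promoter windows came from RefSeq. Replicates of a group differed by more than sampling noise (chi-square per degree of freedom 2.41 to 31.9), and intervals cover the spread between libraries.

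KO against WT and Fst vector against GFP vector were each fitted on their own 6 libraries in R 4.3.3 with edgeR 4.0.16 by its quasi-likelihood test, TMM scaling, filterByExpr, robust dispersion and Benjamini-Hochberg adjustment over all genes tested, at a threshold of 0.05. GFP vector against KO, and the difference of effects, Fst vector minus GFP vector less WT minus KO, came from a fit of all 12 libraries. The steps were tested on simulated data. Alternatives were DESeq2 1.42.0, library totals, RLE factors, other filters, sex by title, the share of ribosomal RNA, a replicate block and leaving out each library.

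The 8 genes and the 9 pathway and 13 marker lists were chosen with earlier results of these data known. Of 116 pathway entries all were matched, 4 by an older symbol. The text names the 8 genes, pathway list members called with or without the block, the smallest p of each pathway list, the 3 highest levels of a list, and the 5 genes at each end of the correlation with Il1r1, of which 1 is not reported here. Genes named outside this rule include the marker Fibcd1, after its values were seen, since it passed with the block. They also include Bdnf, which is on none of the lists. The marker Dsp, which passed with the block too, falls within the rule by its correlation with Il1r1. Deviations from the group means of same-named libraries correlated at 0.352 (M1), 0.154 (M2) and 0.407 (F) in the vector groups, all above 0.1. Of the differently named pairs, Fst vector M2 with GFP vector M1 was also above it, at 0.132. The rest were at 0.0966 or less. The names were taken to pair the libraries, from the data and not from any label, for M2 by a small margin. Calls with the block depend on this choice. Between KO and WT no same-named pair was above 0.1.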

Additional observations from a re-analysis of the deposited data

How the results depend on the processing

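Of the log2 changes of the 8 genes under the alternatives, leaving out Il1r1 in contrasts that hold vector libraries (54 values, all negative, with no test), 426 kept their direction and their side of the threshold, 13 passed it newly and 29 turned sign; none that turned had been called. In KO against WT, Il1r1 turned to -0.017 with library totals and -0.00081 without the filter, and Il1rapl1 to 0.00026 with DESeq2, 0.00015 with a CPM of at least 1 in 3 libraries, 0.0060 with the replicate block and 6.8e-05 with all 12 libraries in 1 fit. Leaving out each library in turn, log2 changes in KO against WT ran from -0.026 to 0.029 for Il1r1, -0.046 to 0.040 for Il1rap, -0.12 to 0.075 for Il1rapl1, -0.14 to 0.046 for Irak1, -0.051 to 0.15 for Irak2, -0.019 to 0.41 for Myd88 and -0.63 to 0.14 for Sigirr. In GFP vector against KO they ran from -0.19 to 0.032 for Irak1, -0.11 to 0.45 for Myd88 and -0.024 to 0.83 for Sigirr, and Sigirr ran from -0.11 to 0.84 between the vector groups and from -0.27 to 0.69 in the difference of effects. The 13 new calls were 12 of Il1rap in the vector comparisons and 1 of Il1rapl1.

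Genes called between the vector groups numbered 12, but 241 with DESeq2, 230 without the filter, 132 with sex by title, 141 with the replicate block and 412 with all 12 libraries, and 1 to 29 when each library was left out (29 without GFP vector M1, 4 without GFP vector M2, 2, 1 and 3 without Fst vector M1, M2 and F). In KO against WT the 4 became 46 without the filter, 30 with sex, 9 with the ribosomal RNA share, 23 with the replicate block and 1 with all 12 libraries, and 2 to 17 by library (17 without WT F1, 2 without WT M2, 7 without KO M2). In GFP vector against KO the 559 became 1237 with DESeq2 and 1190 without the filter, and 7 to 1831 by library (1831, 131 and 141 without GFP vector M1, M2 and F, 1481 without Fst vector M1, 7, 20 and 10 without KO M1, F1 and M2, 160, 181 and 162 without WT M1, F1 and M2). In the difference of effects the 17 became 139 with DESeq2, 127 without the filter, 42 with sex, 26 with the ribosomal RNA share and 163 with the replicate block, and 4 to 58 by library (5, 6 and 7 without WT M1, F1 and M2, 8, 4 and 4 without KO M1, F1 and M2, 58, 52 and 35 without GFP vector M1, M2 and F, 40, 10 and 29 without Fst vector M1, M2 and F). The causes of these shifts were not tested.

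Same-named KO and WT libraries correlated at 0.0637 (M1), 0.0784 (F1) and -0.140 (M2), so the block there pairs only names. Differently named, KO M1 with WT M2 reached 0.213 and KO M2 with WT F1 reached 0.127. No paired analysis was possible for GFP vector against KO because the block and the count table cannot be told apart. Among the 7 genes other than Il1r1, the block changed a call for Il1rap in the difference of effects only. Depth limits Il1rapl2, Sigirr and Myd88 most, with 4 to 44 reads per library.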

Other observations

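Of the 24 listed genes that interleukin-1 and NF-kappaB induce, 12 were tested between the vector groups. Cxcl10 was among those that did not pass the filter there, and it is named here because its values were seen. Cxcl10, an interferon-induced chemokine, had 188 reads (17.9 CPM) in GFP vector F, 9 in GFP vector M2 and 0 in GFP vector M1. Fst vector M1, M2 and F had 3, 2 and 1 reads. KO M1, F1 and M2 also had 3, 2 and 1, and all 3 WT libraries had 0. GFP vector F was also the library with the highest summed astrocyte markers, at 8799 CPM against 3916 to 5534 in the other 11. Its Il1r1 level of 28.8 CPM was close to the 27.8 of GFP vector M2, where Cxcl10 was at 0.877 CPM and summed astrocyte markers were at 5534 CPM. In GFP vector M1 that sum was 3916 CPM and Il1r1 was at 57.4 CPM. The relation of Il1r1 to Cxcl10 and to these markers was not tested.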
